A study of Mus musculus with 17 samples.

Results

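The genes described here are the amino acid transporter genes of 7 solute carrier (SLC) families, measured by RNA-seq in mouse pluripotent cells with and without the transcription factor Nanog, in partially reprogrammed cells and in embryonic fibroblasts. They were chosen by name: a gene belongs if its symbol starts with Slc1a, Slc3a, Slc6a, Slc7a, Slc36a, Slc38a or Slc43a followed by a number. That gave 63 of the 28670 genes in each sample's table, under 62 symbols, because Slc38a9 had 2 rows. One of the 63, Slc7a6os, carries the name of its neighbour Slc7a6 and encodes no carrier. The Slc6 family also holds carriers of creatine, taurine, betaine and the monoamine transmitters.

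Amino acids cross the plasma membrane only through carriers, and each carrier takes a defined group of substrates. Sodium-coupled carriers such as the system A members of Slc38 accumulate small neutral amino acids. Exchangers such as ASCT2 (Slc1a5) and the CD98 heterodimers, in which a heavy chain of the Slc3 family is joined to a light chain of the Slc7 family, then trade these for others, among them leucine, arginine and cystine. Mouse pluripotent cells are known to depend on imported threonine, and amino acids reaching the lysosome switch on the growth kinase mTORC1.

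The study compared 7 groups of cells in 17 libraries. WT ESC (embryonic stem cells, 4 libraries) and WT iPSC (induced pluripotent stem cells, 3 libraries) each held libraries of strain 129/B6 (v6.5) and of strain c57/b6. WT piPSC were partially reprogrammed cells of strain 129/B6 (v6.5), 2 libraries of clone B1. Nanog null ESC (genotype Nanog -/-, 2 libraries) and Nanog null iPSC of clones G2 and G5 (2 libraries each) were also 129/B6 (v6.5). WT MEFs (embryonic fibroblasts, 2 libraries) were c57/b6 cells at passage 2. WT ESC were at passages 10 to 15, as were the 2 c57/b6 WT iPSC libraries, while the other stem cell libraries were at passage 6. The protocols describe the Nanog -/- ESC and the picked iPSC colonies as grown on feeder cells in a medium with LIF and a pair of kinase inhibitors, and the MEFs as grown in serum. Retroviruses carried the reprogramming factors Klf4, Oct4 and Sox2, in some cases also c-Myc, and Nanog -/- MEFs came from chimaeric embryos, sorted for a constitutive GFP. Each of piPSC, G2 and G5 is a single clone, so the spread within these groups says nothing about differences between clones. The series' design text calls the libraries biological replicates, but nothing says that they came from separate cultures, and p-values here measure the spread between these libraries only.

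The libraries fell into a batch AC (11 libraries) and a batch JI (6 libraries), named by the prefix of the sample codes, and all AC libraries were 129/B6 (v6.5) and all JI libraries c57/b6, so batch and strain cannot be told apart. WT ESC 1 and 2 and WT iPSC 1 were AC, WT ESC 3 and 4, WT iPSC 2 and 3 and both MEF libraries were JI. Depth ran from 7.80 to 43.5 M assigned fragments per library. Ribosomal protein genes took 19.4% to 26.3% of the fragments in the JI stem cell libraries, 5.32% to 9.70% in the AC libraries and 3.65% to 3.66% in MEF. Nanog stood at 270 to 762 FPKM (fragments normalised to transcript length and library size) in WT ESC and WT iPSC, at 27.2 to 49.5 in the Nanog null libraries, at 2.91 and 3.12 in piPSC and below 0.25 in MEF. The labels do not say which part of Nanog was deleted. All 10 pluripotency markers reached 1 FPKM in the stem cell groups other than piPSC, where 7 did, and none did in MEF. Their sum was 6586 to 20350 FPKM in WT ESC and WT iPSC, 2636 to 4548 in the Nanog null libraries, 7086 and 7471 in piPSC and below 1 in MEF. In piPSC nearly all of it was Pou5f1, the gene of the retroviral factor Oct4, at 6975 and 7303 FPKM against 639.5 to 1585 in WT ESC and WT iPSC. Every other listed marker was lower in both piPSC libraries than in any WT ESC or WT iPSC library, with Dppa5a at 18.7 and 18.2. The 10 fibroblast markers summed to 6561 and 6615 FPKM in MEF, 225 to 1125 in WT ESC and WT iPSC, 128 and 136 in piPSC and 585 to 1406 in the Nanog null libraries. In the JI stem cell libraries most of that sum was Vim, at 728 to 1001 FPKM. Apart from Vim and Thy1, each listed marker was higher in every Nanog null library than in any WT ESC or WT iPSC library. Col1a1, for one, was at 107 to 304 FPKM against 6.07 to 63.0.

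Of the 63 genes, 44 reached 1 FPKM in at least 2 libraries and were tested, and 19 did not. The Slc38 and Slc43 families were almost fully detected (11 of 12 and 3 of 3), as was Slc7 (13 of 16), while in Slc6 only 9 of 19 passed. Among those that did not pass were all 3 monoamine carriers (Slc6a2, Slc6a3 and Slc6a4), the second heavy chain Slc3a1 and the light chain Slc7a13. Slc6a18 and Slc7a12 were listed at 0 in every library. At a group mean of at least 1 FPKM, between 31 and 33 of the genes were expressed in each of the 7 groups.

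**Figure D1:**
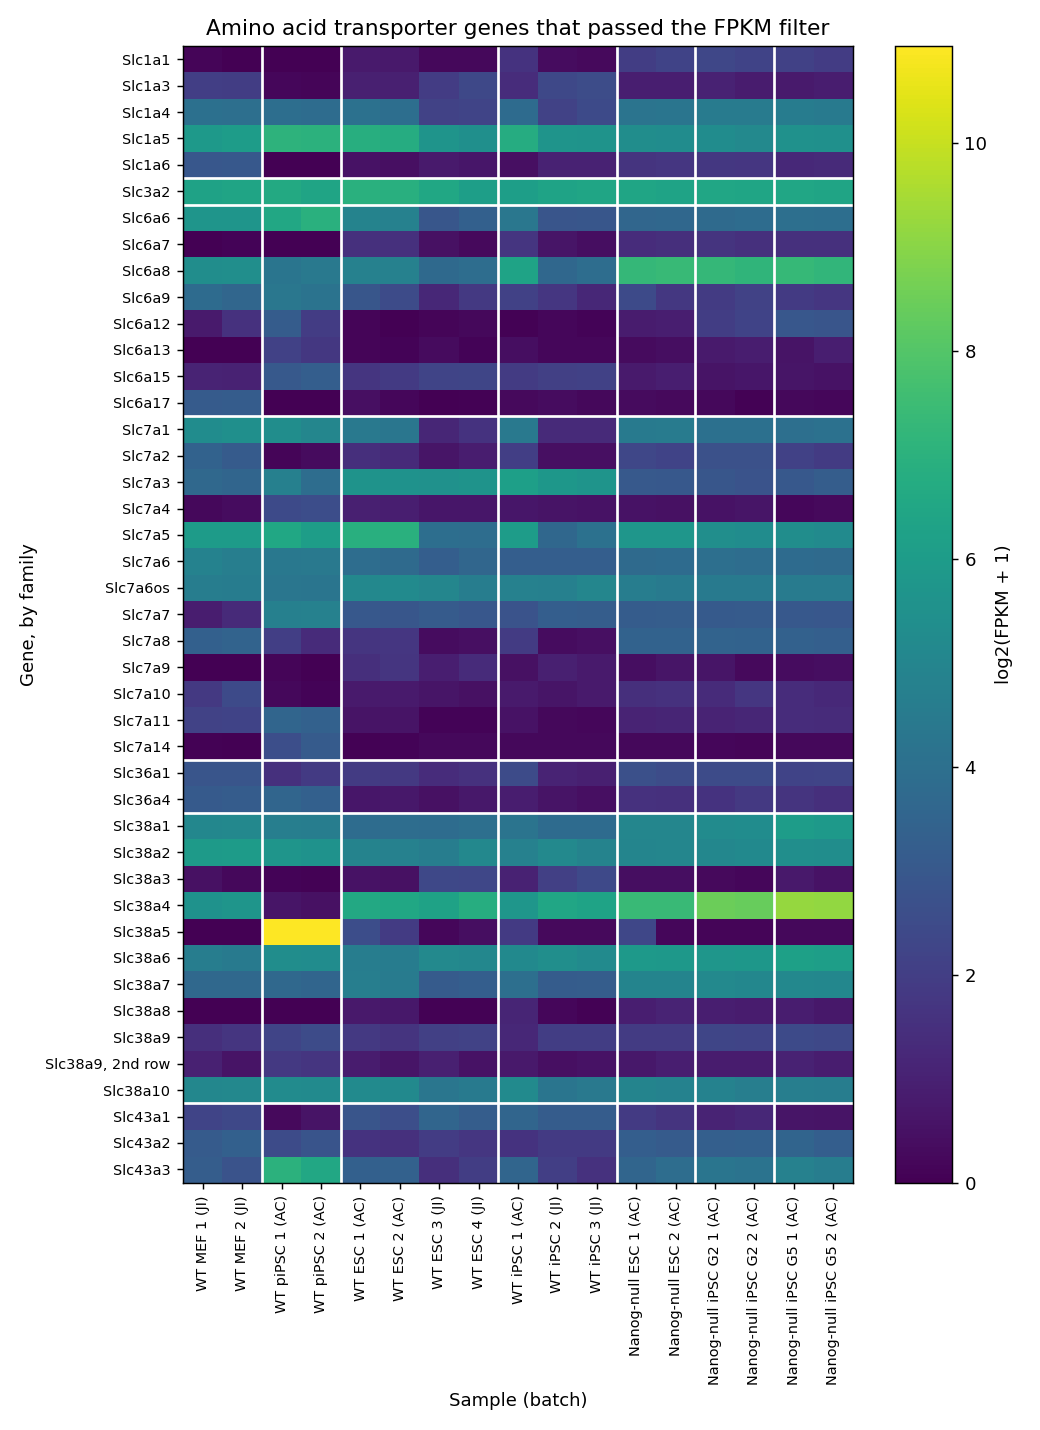
Level of 43 of the 44 tested genes (rows, by family) in each of the 17 libraries (columns, with batch), as log2(FPKM + 1), with white lines between families and groups. Slc38a5 is bright only in the 2 piPSC columns, and Slc38a4 is darkest there and brightest in the Nanog null iPSC.

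The genes that held the largest parts of the transporter message differed by cell type. Summed over the 63 genes, the level was 488 to 825 FPKM in WT ESC, 497 to 730 in WT iPSC, 714 and 732 in MEF, 853 in both Nanog null ESC libraries, 999.5 and 1043 in clone G2, 1284 and 1349 in clone G5 and 2806 and 2910 in piPSC. Slc38a5 alone was 67.1% and 68.8% of the sum in the 2 piPSC libraries. Slc38a4 was 19.9% and 20.1% of it in Nanog null ESC, 33.2% and 34.1% in G2 and 43.7% and 44.1% in G5. In WT ESC 1 and 2 the most abundant pair was the heavy chain Slc3a2 and its light chain Slc7a5, at 14.3% to 15.3% each. These FPKM sums are relative levels and not shares of a library. Of the assigned fragments, the 63 genes took 0.101% to 0.137% in the JI libraries of WT ESC and WT iPSC and 0.261% to 0.296% in their AC libraries. The share was 0.271% and 0.275% in MEF, 0.321% to 0.475% in the Nanog null libraries and 0.745% and 0.733% in piPSC.

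**Figure D2:**
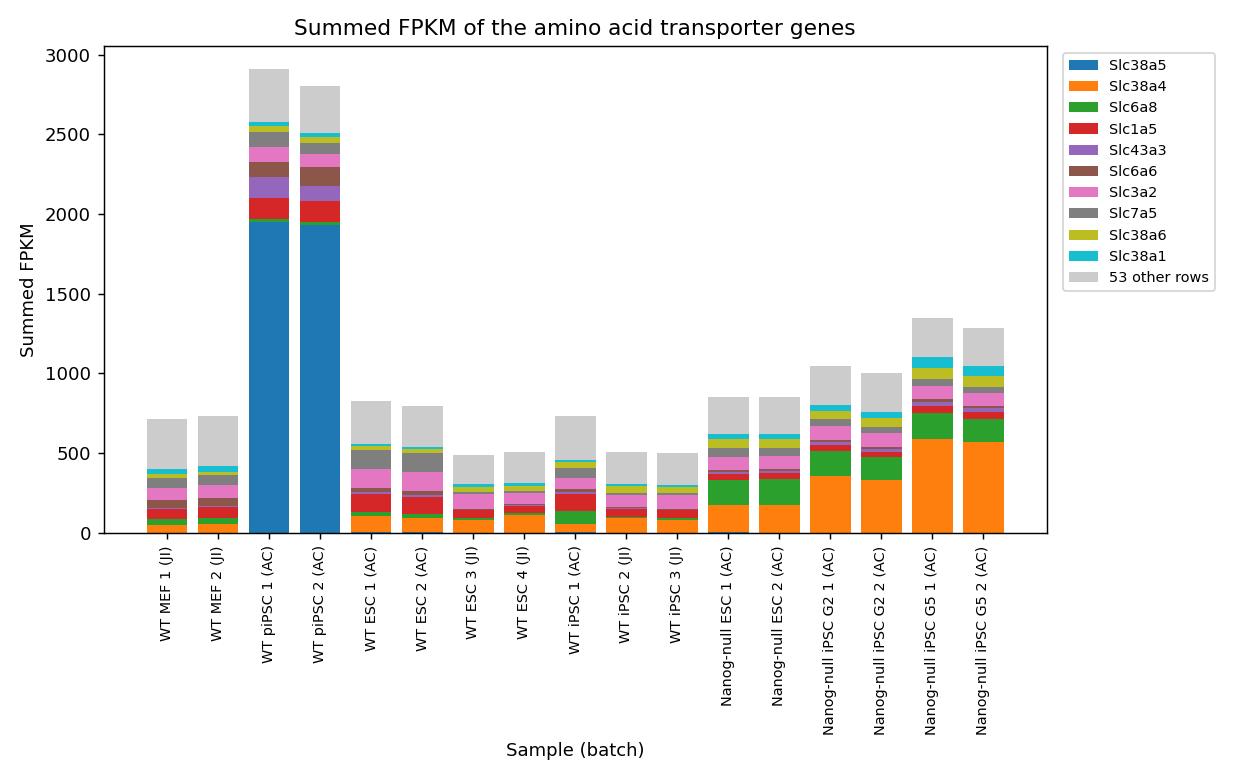
Summed FPKM of the 63 genes in each library (bars, stacked), with the 10 most abundant genes in colour and the other 53 in grey. The piPSC bars reach 2806 and 2910 FPKM, mostly Slc38a5, and the Nanog null iPSC bars 999.5 to 1349, with Slc38a4 the largest piece.

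Calls are limma tests on log2(FPKM + 1) with group and batch as terms and Benjamini-Hochberg adjustment over all 15298 genes tested. On this scale, changes of genes near or below 1 FPKM are understated. In MEF against WT ESC, 23 of the 44 were higher and 11 lower, 77.3% in all, beside 80.1% of all genes tested (38.8% higher and 41.3% lower). In piPSC against WT iPSC, 20 were higher and 17 lower (84.1%), beside 64.7% of all genes (30.5% and 34.2%). In Nanog null ESC against WT ESC, 15 were higher and 11 lower (59.1%), beside 53.8% (27.4% and 26.4%). In Nanog null iPSC, the mean of both clones, against WT iPSC, 20 were higher and 12 lower (72.7%), beside 57.4% (28.7% each way). Nanog null iPSC against Nanog null ESC gave 7 higher and 2 lower (20.5%), beside 10.8% (6.19% and 4.62%). Clone G2 against G5 gave 1 higher and 2 lower (6.82%), beside 5.36% (3.14% and 2.22%), while edgeR called 6, beside 6.64%. In WT iPSC against WT ESC none of the 44 was called, beside 1.02% of all genes (0.641% higher and 0.379% lower). Before adjustment, 13 (29.5%) had a limma p under 0.05, beside 20.6% of all genes, and edgeR called 2 as higher, Slc1a1 and Slc38a6, beside 8.6% of all genes. The median log2 change of the 44 was 0.39 in MEF, 0.03 in piPSC, 0.16 in Nanog null ESC and 0.17 in Nanog null iPSC, where the medians of all genes were -0.04, -0.06, -0.01 and -0.02. Markers of other cells also differed in the first 2 comparisons. The 7 macrophage markers summed to 515 and 518 FPKM in MEF, all above 1 FPKM, and 12.9 to 91.2 in WT ESC. The 5 epithelial markers summed to 16.7 and 20.5 in piPSC, 3 of them above 1 FPKM, and 108 to 748 in WT iPSC. Their part in the transporter differences was not tested.

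Slc38a5 encodes a system N carrier (SNAT5) that moves glutamine, serine, glycine and histidine with sodium in exchange for protons. It was at 1952 and 1931 FPKM in piPSC. WT ESC 1 and 2 had 5.01 and 2.71, WT ESC 3 and 4 had 0.13 and 0.33, WT iPSC 1 had 2.60, and WT iPSC 2 and 3 had 0.22 and 0.20. Nanog null ESC had 4.08 and 0.14, clone G2 0.12 and 0.11, clone G5 0.16 and 0.19, and both MEF libraries were listed at 0. The piPSC libraries thus stood apart from every other library, and the highest of the rest was WT ESC 1. Against WT iPSC the log2 change was 8.93 ± 0.49 (SE; limma adjusted p = 5.98e-09), and 9.07 within the AC libraries alone, where WT iPSC is a single library. Slc38a3, the other system N carrier, was lower in piPSC (0.09 and 0.04 FPKM) than in WT iPSC (1.07, 3.14 and 4.29), by a log2 change of -0.71 ± 0.18 (limma adjusted p = 0.00377).

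Outside piPSC, the level of Slc38a5 was low and uneven. Other genes abundant in piPSC were set beside it: Nccrp1, Cst12, Cldn11, Gcnt3 and Ryr3, chosen after their values were seen because they had, like Slc38a5, at least 50 FPKM in both piPSC libraries and less than 1 in the JI, G2 and G5 libraries. That choice fixes their low level there and leaves only the AC libraries of WT cells and the Nanog null ESC to be compared. Between the 2 Nanog null ESC libraries, where Slc38a5 was 4.08 and 0.14 FPKM, Nccrp1 was 0.94 and 0.29, Cldn11 0.53 and 0.09, Gcnt3 0.47 and 0.29 and Ryr3 1.13 and 1.001, while Cst12 was listed at 0 in both. Slc38a5 was called lower in Nanog null iPSC than in WT iPSC (-1.81 ± 0.43, limma adjusted p = 0.0032) and higher in AC than in JI libraries (1.80 ± 0.36, limma adjusted p = 0.00061), and both calls rest on these low levels. Whether a source shared with these genes has a part in them was not tested.

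The promoter of Slc38a5 is shown because no other member rose as far, and those of Slc7a11 and Slc7a14 because they were the next members with a RefSeq promoter to rise most in piPSC. Each is the 250 bases before the transcription start on the gene's strand, 5′ to 3′, from RefSeq on build GRCm38.p6. Slc38a5 lies at chrX:8271131-8271380 (plus strand), Slc7a11 at chr3:50443614-50443863 and Slc7a14 at chr3:31310320-31310569 (both minus strand). In the GENCODE vM21 annotation, Slc38a5 begins at chrX:8271133 and Slc7a14 at chr3:31310378. Nearly all of the Slc38a5 stretch and part of the Slc7a14 stretch thus lie within the annotated genes. Distances below are to the RefSeq starts. Capitals mark the motifs searched on both strands.
Slc38a5: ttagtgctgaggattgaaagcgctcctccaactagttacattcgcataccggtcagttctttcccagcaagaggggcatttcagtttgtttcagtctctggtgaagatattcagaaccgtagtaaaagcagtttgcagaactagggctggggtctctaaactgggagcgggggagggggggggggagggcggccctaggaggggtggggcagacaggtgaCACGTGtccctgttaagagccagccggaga
Slc7a11: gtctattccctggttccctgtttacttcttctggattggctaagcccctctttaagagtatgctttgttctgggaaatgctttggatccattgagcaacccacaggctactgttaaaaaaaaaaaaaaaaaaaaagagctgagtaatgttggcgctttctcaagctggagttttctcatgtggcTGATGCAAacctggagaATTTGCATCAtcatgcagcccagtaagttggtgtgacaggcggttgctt
Slc7a14: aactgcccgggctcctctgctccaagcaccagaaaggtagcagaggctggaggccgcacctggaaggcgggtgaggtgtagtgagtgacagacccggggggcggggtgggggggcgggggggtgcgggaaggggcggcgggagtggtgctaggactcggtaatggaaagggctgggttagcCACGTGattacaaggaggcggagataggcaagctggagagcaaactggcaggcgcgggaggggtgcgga
The motifs were the core of a composite site bound by ATF4 with a C/EBP partner (TGATGNAA), the E-box CACGTG, which Myc and the TFE factors bind, and the octamer ATGCAAAT, which Oct4 binds. The E-box stood 30 bases before the RefSeq start of Slc38a5 and 69 before that of Slc7a14. Slc7a11, which encodes the cystine carrier xCT, had the composite core at 66 and 47 bases before the start, the second overlapping an octamer at 49. Of the 62 symbols, 44 had a promoter in the table, 65 promoters in all. CACGTG was in 8 of the 65 (12.3%, against 6.02% of all 32851 promoters), the composite core in 3 (4.62% against 3.45%) and the octamer in 2 (3.08% against 1.60%). A match describes the letters only and shows no binding.

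The system A carriers (Slc38a1, Slc38a2 and Slc38a4) concentrate alanine, serine and glutamine with sodium. Slc38a4, which is known to be imprinted and read from the paternal copy in the embryo and placenta, was at 97.2, 89.0, 78.6 and 111 FPKM in WT ESC and 52.2, 88.7 and 80.1 in WT iPSC. It was at 0.52 and 0.40 in piPSC and 46.0 and 51.5 in MEF. Nanog null ESC had 170 and 171 FPKM, clone G2 356 and 332, and clone G5 589 and 567. All 6 Nanog null libraries were above every WT library, G5 was above G2 and G2 above the Nanog null ESC, while piPSC was far below all others. The log2 change was -5.46 ± 0.19 in piPSC against WT iPSC (limma adjusted p = 8.21e-11) and 1.004 ± 0.17 in Nanog null ESC against WT ESC (limma adjusted p = 3.00e-04). In Nanog null iPSC it was 2.80 ± 0.16 against WT iPSC (limma adjusted p = 3.00e-08) and 1.38 ± 0.15 against Nanog null ESC (limma adjusted p = 1.03e-04). The WT step from ESC to iPSC was -0.42 ± 0.14 and not called, and it differed from the Nanog null step by 1.80 ± 0.21 (limma adjusted p = 2.37e-04). The difference between G2 and G5, -0.75 ± 0.18 (limma adjusted p = 0.0289), was no longer called once any of their 4 libraries was left out.

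Slc38a1, which lies near Slc38a4 on chromosome 15, followed the same order at a lower level. It was at 13.6 to 15.1 FPKM in WT ESC, 17.2, 13.0 and 13.1 in WT iPSC, 31.1 and 31.4 in Nanog null ESC, 37.4 and 38.3 in G2 and 64.8 and 59.3 in G5. Unlike Slc38a4, it was higher in piPSC (24.7 and 24.1) than in any WT ESC or WT iPSC library, and MEF had 32.6 and 33.6. It was called in Nanog null ESC (1.04 ± 0.10) and Nanog null iPSC (1.61 ± 0.10) against their WT counterparts, and lower in G2 than in G5 by a log2 change of -0.70 ± 0.11 (limma adjusted p = 0.00227). Slc38a2, the amino acid-responsive member of the trio that lies between them, ranged from 23.6 to 34.6 FPKM in WT ESC and WT iPSC and from 30.8 to 41.3 in the Nanog null libraries, ranges that overlap. Its highest levels were in MEF (61.2 and 62.6) and piPSC (51.3 and 46.4), and both were called, at 1.07 ± 0.13 and 0.76 ± 0.15. It was also called in Nanog null iPSC (0.37 ± 0.13).

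**Figure D3:**
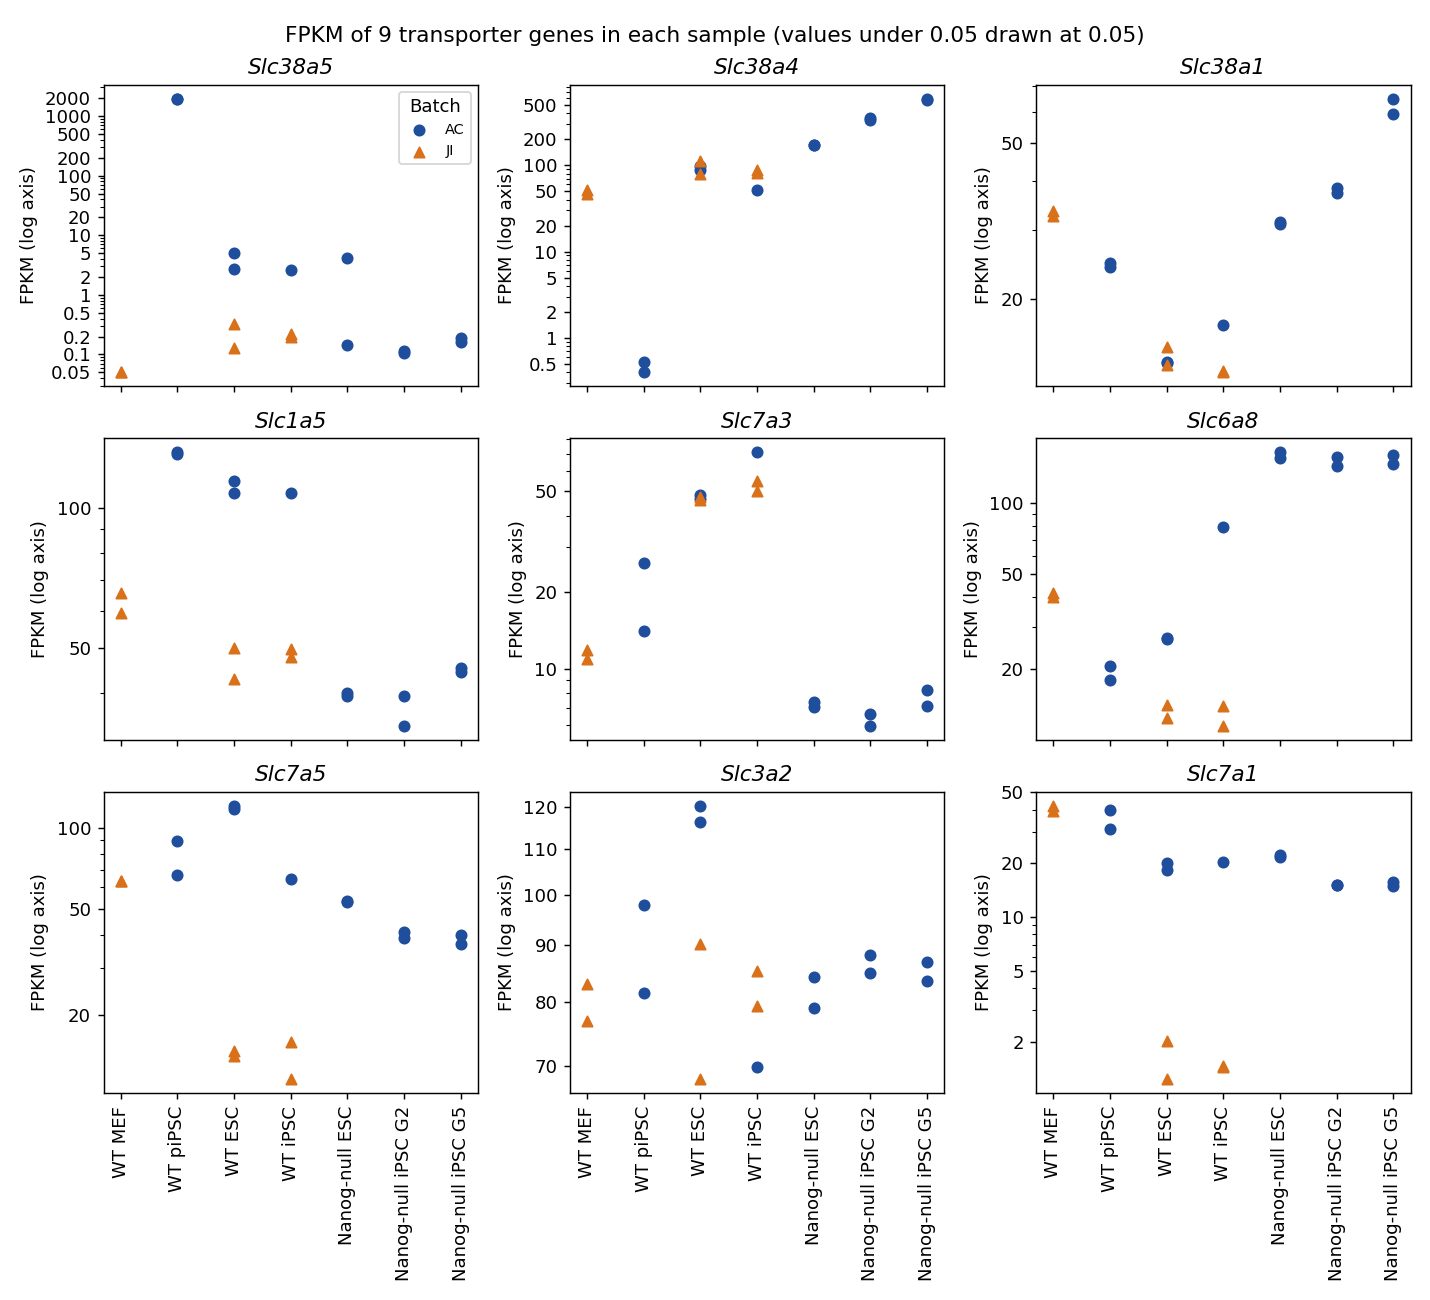
FPKM (log axis) of 9 genes in each library, by group, with AC libraries as circles and JI libraries as triangles; values under 0.05 are drawn at 0.05. Slc38a5 stands at 1931 and 1952 FPKM in piPSC, Slc38a4 and Slc38a1 are highest in clone G5, Slc7a3 and Slc6a8 separate Nanog null from WT libraries, and Slc7a5 and Slc7a1 separate AC from JI within WT ESC and WT iPSC.

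Slc38a6, a less characterised member, was at 23.0 to 41.5 FPKM in WT ESC and WT iPSC and 52.1 to 72.7 in the Nanog null libraries, with no overlap, and was called in Nanog null ESC (1.17 ± 0.10) and iPSC (0.94 ± 0.10). Its difference between AC and JI turned sign between the tests, -0.36 on FPKM and 0.30 on counted fragments in edgeR. Slc38a7, a glutamine carrier of lysosomes, was at 22.6 to 24.3 FPKM in the AC WT ESC and 15.1 in WT iPSC 1, against 29.1 to 33.9 in the Nanog null libraries, and was called higher in both (0.43 ± 0.13 and 0.83 ± 0.13). Slc38a9, the lysosomal arginine sensor that reports to mTORC1, was at 1.30 to 3.40 FPKM in WT ESC and WT iPSC. It was at 3.67 to 4.56 in Nanog null iPSC, where it was called (0.97 ± 0.13). Nanog null ESC had 2.70 and 2.77, within the WT range, and piPSC had 3.77 and 4.62. Its row ENSMUSG00000069056 was at most 1.05 outside piPSC. Slc38a10 was 35.9 to 37.1 FPKM in the AC and 18.2 to 20.9 in the JI libraries of WT ESC and WT iPSC, with the Nanog null libraries between them at 23.6 to 29.2. With batch as a term its changes were -0.35 ± 0.09 in Nanog null ESC and -0.50 ± 0.08 in Nanog null iPSC, both called, and without one they turned to 0.08457 and 0.07723.

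The heavy chain Slc3a2 (CD98), which carries the light chains to the cell surface, was at a like level in every group, at 120, 116, 90.3 and 68.0 FPKM in WT ESC, 69.9, 79.3 and 85.3 in WT iPSC, 97.8 and 81.5 in piPSC, 84.2 and 79.0 in Nanog null ESC, 85.0 to 88.1 in G2, 83.6 and 86.8 in G5 and 76.8 and 82.9 in MEF. The WT ESC range held every other library, and limma called it in none of the comparisons between groups. The changes were -0.14 ± 0.18 in MEF, 0.02 ± 0.20 in piPSC, -0.37 ± 0.18 in Nanog null ESC and -0.03 ± 0.18 in Nanog null iPSC. Within the AC libraries alone it was lower in Nanog null ESC (-0.53, limma adjusted p = 4.53e-04) than in WT ESC. WT iPSC has a single AC library, so its changes within that batch have no replicate check.

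The light chains varied more widely. Slc7a5 (LAT1), which imports leucine and other large neutral amino acids, was at 118 and 121 FPKM in WT ESC 1 and 2 and 14.7 and 14.2 in WT ESC 3 and 4. WT iPSC had 64.3 in the AC library and 11.5 and 15.9 in the JI libraries, piPSC 89.8 and 66.7, and MEF 63.6 and 63.2. Nanog null ESC had 53.3 and 52.8, G2 40.8 and 39.0, and G5 39.8 and 36.9, below the AC and above the JI libraries of WT ESC and WT iPSC. With batch as a term it was lower in Nanog null ESC (-0.998 ± 0.19, limma adjusted p = 7.40e-04) and Nanog null iPSC (-1.02 ± 0.18, limma adjusted p = 4.25e-04). Within the AC libraries the changes were -1.16 and -0.70, and without a batch term they turned to 0.33 and 0.74.

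Slc7a8 (LAT2), which prefers small and large neutral amino acids, moved the other way. It was at 2.21 and 2.30 FPKM in the AC WT ESC, 2.70 in WT iPSC 1 and at most 0.36 in their JI counterparts, against 8.83 to 10.0 in all 6 Nanog null libraries and 9.12 and 10.1 in MEF. It was called in Nanog null ESC (1.69 ± 0.16), Nanog null iPSC (1.59 ± 0.16) and MEF (3.04 ± 0.16), and piPSC had 3.06 and 1.52. Slc7a6, which exchanges arginine for neutral amino acids with sodium, was at 8.63 to 14.1 FPKM in WT ESC and WT iPSC, 12.7 to 15.1 in the Nanog null libraries, 19.8 and 20.7 in piPSC and 28.1 and 24.2 in MEF. It rose in MEF (1.23 ± 0.13), piPSC (0.97 ± 0.14) and Nanog null iPSC (0.44 ± 0.12), where leaving out WT iPSC 1 ended the call. Slc7a7, with the same activity, was at 6.05 to 8.75 FPKM in WT ESC and WT iPSC and 6.78 to 8.29 in the Nanog null libraries. It reached 26.1 and 27.2 in piPSC (1.83 ± 0.15) and was 0.82 and 1.49 in MEF (-2.02 ± 0.14). A stretch of its exons, 7.00% of their length, overlaps Oxa1l on the other strand, and the library kit does not mark strand.

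Slc7a11, the cystine importer that feeds glutathione synthesis, was below 0.5 FPKM in all WT ESC and WT iPSC libraries. It was at 10.8 and 9.48 in piPSC, 3.48 and 3.60 in MEF and 1.11 to 1.64 in the 6 Nanog null libraries, each above every WT ESC and WT iPSC library. The log2 changes were 2.89 ± 0.10 in piPSC (limma adjusted p = 9.46e-11), 2.05 ± 0.09 in MEF, 0.57 ± 0.09 in Nanog null ESC and 0.66 ± 0.09 in Nanog null iPSC. Slc7a10, a carrier of small neutral amino acids and D-serine, was 0.41 to 0.75 FPKM in WT ESC and WT iPSC and 1.38 to 2.35 in the Nanog null libraries. It was called higher in both Nanog null comparisons (0.77 ± 0.17 and 0.58 ± 0.17), though 17.9% of its exon length overlaps Lrp3 on the other strand. Its levels rest on few fragments, 1 to 9 per library in WT ESC and WT iPSC and 13 to 36 in the Nanog null libraries. Slc7a9, the partner of Slc3a1 in kidney, was 1.78 and 2.20 FPKM in the AC WT ESC and 0.40 in WT iPSC 1. The JI libraries had 0.88 and 1.52 in WT ESC and 0.92 and 0.72 in WT iPSC. It was at most 0.56 in the Nanog null libraries and lower in Nanog null ESC than in WT ESC (-0.88 ± 0.20). Its partner Slc3a1 was at most 0.15 and Slc7a13 at most 0.06 FPKM in any library, and neither was tested.

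Among the cationic amino acid carriers, which import arginine, lysine and ornithine, Slc7a3 (CAT3) was the lowest by log2 change in both Nanog null comparisons with WT cells. It was at 45.9 to 48.0 FPKM in the 4 WT ESC libraries and 71.1, 54.6 and 50.02 in WT iPSC, with no difference between batches beyond 0.19 ± 0.16. It was at 7.37 and 7.10 in Nanog null ESC, 6.62 and 5.96 in G2, 7.15 and 8.26 in G5, 11.9 and 10.9 in MEF and 26.0 and 14.1 in piPSC. No Nanog null library reached 9 FPKM and no WT ESC or WT iPSC library was below 45. The log2 changes were -2.64 ± 0.19 in Nanog null ESC (limma adjusted p = 2.87e-07), -3.01 ± 0.19 in Nanog null iPSC (limma adjusted p = 5.15e-08), -1.86 ± 0.19 in MEF and -1.67 ± 0.22 in piPSC.

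Slc7a1 (CAT1), the widely expressed arginine importer, differed by batch in the WT stem cells. It was at 18.3 to 20.2 FPKM in the 3 AC libraries of WT ESC and WT iPSC and at 1.23 to 2.03 in their 4 JI libraries. MEF, also JI, had 39.3 and 42.1 (4.03 ± 0.13 against WT ESC), and piPSC had 39.7 and 31.1 (0.83 ± 0.15 against WT iPSC). Nanog null ESC had 21.6 and 22.1 and Nanog null iPSC 15.0 to 15.8, lower than Nanog null ESC by -0.49 ± 0.12 (limma adjusted p = 0.0218), a call lost when any of those 6 libraries but G5 2 was left out. Slc7a2 (CAT2), the inducible member, was highest in MEF (9.99 and 7.72; 2.73 ± 0.21) and lowest in piPSC (0.10 and 0.26). Slc7a14, a relative found in lysosomes, was at most 0.19 FPKM outside piPSC and at 5.26 and 7.86 within it (2.72 ± 0.13, limma adjusted p = 1.82e-09). Slc7a4, another relative, was at most 0.97 outside piPSC and 4.45 and 4.96 within it (1.79 ± 0.10), with 13.3% of its exon length overlapping P2rx6 on the other strand.

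Of the 2 neutral amino acid exchangers of Slc1, Slc1a5 (ASCT2), the main glutamine exchanger of dividing cells, was called lower in both Nanog null comparisons. It was at 114 and 107 FPKM in WT ESC 1 and 2, 108 in WT iPSC 1 and 42.8 to 49.99 in the JI libraries of both. It was 34.0 to 45.3 in the 6 Nanog null libraries, 132 and 131 in piPSC and 59.5 and 65.5 in MEF. The Nanog null levels lay below all AC libraries of WT cells and overlapped the JI ones. The changes were -1.44 ± 0.09 in Nanog null ESC (limma adjusted p = 8.18e-08) and -1.43 ± 0.09 in Nanog null iPSC (limma adjusted p = 4.68e-08), and -1.46 and -1.39 within the AC libraries. Slc1a4 (ASCT1), a serine and alanine exchanger, was at 13.3 to 15.7 in the AC and 3.41 to 4.45 in the JI libraries of WT ESC and WT iPSC and 17.5 to 23.0 in the Nanog null libraries, a call in both comparisons (0.27 ± 0.11 and 0.60 ± 0.10). In Nanog null ESC that call was lost when WT ESC 2 or either Nanog null ESC library was left out.

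The glutamate carriers were low throughout. Slc1a1 reached 2.81 to 3.98 FPKM in the Nanog null libraries against at most 2.07 elsewhere, but 31.9% of its exon length overlaps a gene on the other strand. Slc1a3 was highest in the JI libraries of WT ESC and WT iPSC (2.87 to 4.81) and at most 0.14 in piPSC. Slc1a6 was 6.78 and 6.98 in MEF, 1.39 to 2.37 in the Nanog null libraries, at most 1.09 in WT ESC and WT iPSC and listed at 0 in piPSC, and it was called higher in MEF (2.17 ± 0.11), Nanog null ESC (1.28 ± 0.11) and Nanog null iPSC (0.93 ± 0.10).

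In Slc6, the creatine carrier Slc6a8 was the third most abundant transporter by highest group mean. It was at 26.7 and 26.9 FPKM in WT ESC 1 and 2, 12.3 and 14.0 in WT ESC 3 and 4, 79.5 in WT iPSC 1 and 11.4 and 13.9 in WT iPSC 2 and 3. It was at 155 and 165 in Nanog null ESC, 157 and 143 in G2, 160 and 146 in G5, 17.8 and 20.4 in piPSC and 40.3 and 41.5 in MEF. Every Nanog null library was above every WT library, and WT iPSC 1 was the highest of the WT. The changes were 2.21 ± 0.29 in Nanog null ESC (limma adjusted p = 3.74e-05) and 1.56 ± 0.28 in Nanog null iPSC (limma adjusted p = 4.15e-04), the latter 0.92 within the AC libraries, where WT iPSC 1 is the only WT library. In piPSC the change was -1.37 ± 0.32 (limma adjusted p = 0.00213), and without a batch term it was no longer called.

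The taurine carrier Slc6a6 was highest in piPSC, at 92.2 and 120 FPKM, and MEF, at 51.2 and 51.3. WT ESC 1 and 2 had 28.7 and 27.2, WT iPSC 1 had 19.1, their JI counterparts 6.36 to 9.19 and the Nanog null libraries 11.2 to 14.8. It rose in piPSC (2.28 ± 0.15, limma adjusted p = 3.53e-08) and MEF (2.51 ± 0.14) and fell in Nanog null ESC (-1.16 ± 0.14) and Nanog null iPSC (-0.56 ± 0.13). Without a batch term the last turned to 0.51. Slc6a12, a betaine and GABA carrier, was at most 0.19 in WT ESC and WT iPSC and 7.98 and 2.80 in piPSC. Among the Nanog null libraries, G5 had 6.85 and 6.36, G2 had 3.01 and 3.62 and the ESC had 0.77 and 0.89. It was higher in piPSC (2.50 ± 0.32), in Nanog null iPSC against WT iPSC (2.47 ± 0.28, limma adjusted p = 1.03e-05) and in Nanog null iPSC against Nanog null ESC (1.65 ± 0.27, limma adjusted p = 0.00163). The call in Nanog null ESC (0.78 ± 0.29) was lost when WT ESC 1 or 2 or either Nanog null ESC library was left out.

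Slc6a9 (GLYT1), the glycine carrier known for keeping embryonic cell volume, was at 1.30 to 6.5 FPKM in WT ESC and WT iPSC and 2.36 to 4.43 in the Nanog null libraries. It was at 19.3 and 16.7 in piPSC (1.91 ± 0.28) and 13.0 and 11.2 in MEF (2.09 ± 0.26), above every other library, though 27.8% of its exon length overlaps Ccdc24 on the other strand. Slc6a15, a carrier of branched-chain amino acids and proline, was 2.25 to 3.82 in WT ESC and WT iPSC, 7.35 and 8.54 in piPSC and 0.44 to 0.90 in the Nanog null libraries, all calls (1.38 ± 0.12, -0.97 ± 0.11 in ESC and -1.19 ± 0.11 in iPSC). Slc6a17, a vesicular carrier of neurons, was 7.74 and 7.97 in MEF and at most 0.35 elsewhere (3.05 ± 0.11). The proline carrier Slc6a7 was higher in AC than in JI libraries of WT ESC and WT iPSC (1.15 ± 0.08).

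The proton-coupled carriers of Slc36 export amino acids from lysosomes or take them up. Slc36a4 was at most 0.86 FPKM in WT ESC and WT iPSC, 1.79 to 2.50 in the Nanog null libraries, 10.9 and 9.29 in piPSC and 7.46 and 8.12 in MEF. It was called in each of these comparisons, from 0.77 ± 0.13 in Nanog null ESC to 2.69 ± 0.14 in piPSC. Slc36a1 ran from 0.92 to 6.47 over all libraries and was called higher in MEF (1.63 ± 0.22).

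The 3 Slc43 genes diverged. Slc43a1 (LAT3), which lets leucine and phenylalanine diffuse, was at 5.25 to 10.96 FPKM in WT ESC and WT iPSC, 3.74 and 4.24 in MEF, 2.68 and 2.11 in Nanog null ESC, 1.10 and 1.34 in G2, 0.54 and 0.50 in G5 and 0.22 and 0.50 in piPSC. No other library came up to the lowest of WT ESC and WT iPSC. The changes were -2.72 ± 0.24 in piPSC (limma adjusted p = 6.35e-07), -1.20 ± 0.22 in Nanog null ESC, -2.28 ± 0.21 in Nanog null iPSC (limma adjusted p = 1.86e-06) and -0.88 ± 0.22 in MEF. Slc43a2 (LAT4), with like substrates, was at 1.82 to 2.82 in WT ESC and WT iPSC and 7.81 to 10.4 in the Nanog null libraries (1.66 ± 0.13 and 1.78 ± 0.12), and 4.73 and 6.09 in piPSC.

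Slc43a3, which is known to move purine nucleobases rather than amino acids, was at 131 and 94.1 FPKM in piPSC, above every other library. WT ESC 1 and 2 had 9.21 and 9.43, WT iPSC 1 had 10.7, their JI counterparts 1.79 to 3.13 and MEF 8.44 and 5.86. Nanog null ESC had 11.01 and 14.0, G2 17.9 and 17.1 and G5 27.2 and 23.8. The change was 3.30 ± 0.23 in piPSC (limma adjusted p = 5.99e-08) and 0.96 ± 0.20 in Nanog null iPSC against WT iPSC (limma adjusted p = 0.00138). Against Nanog null ESC it was 0.72 ± 0.19 (limma adjusted p = 0.0301), a call lost when any of those 6 libraries was left out.

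**Figure D4:**
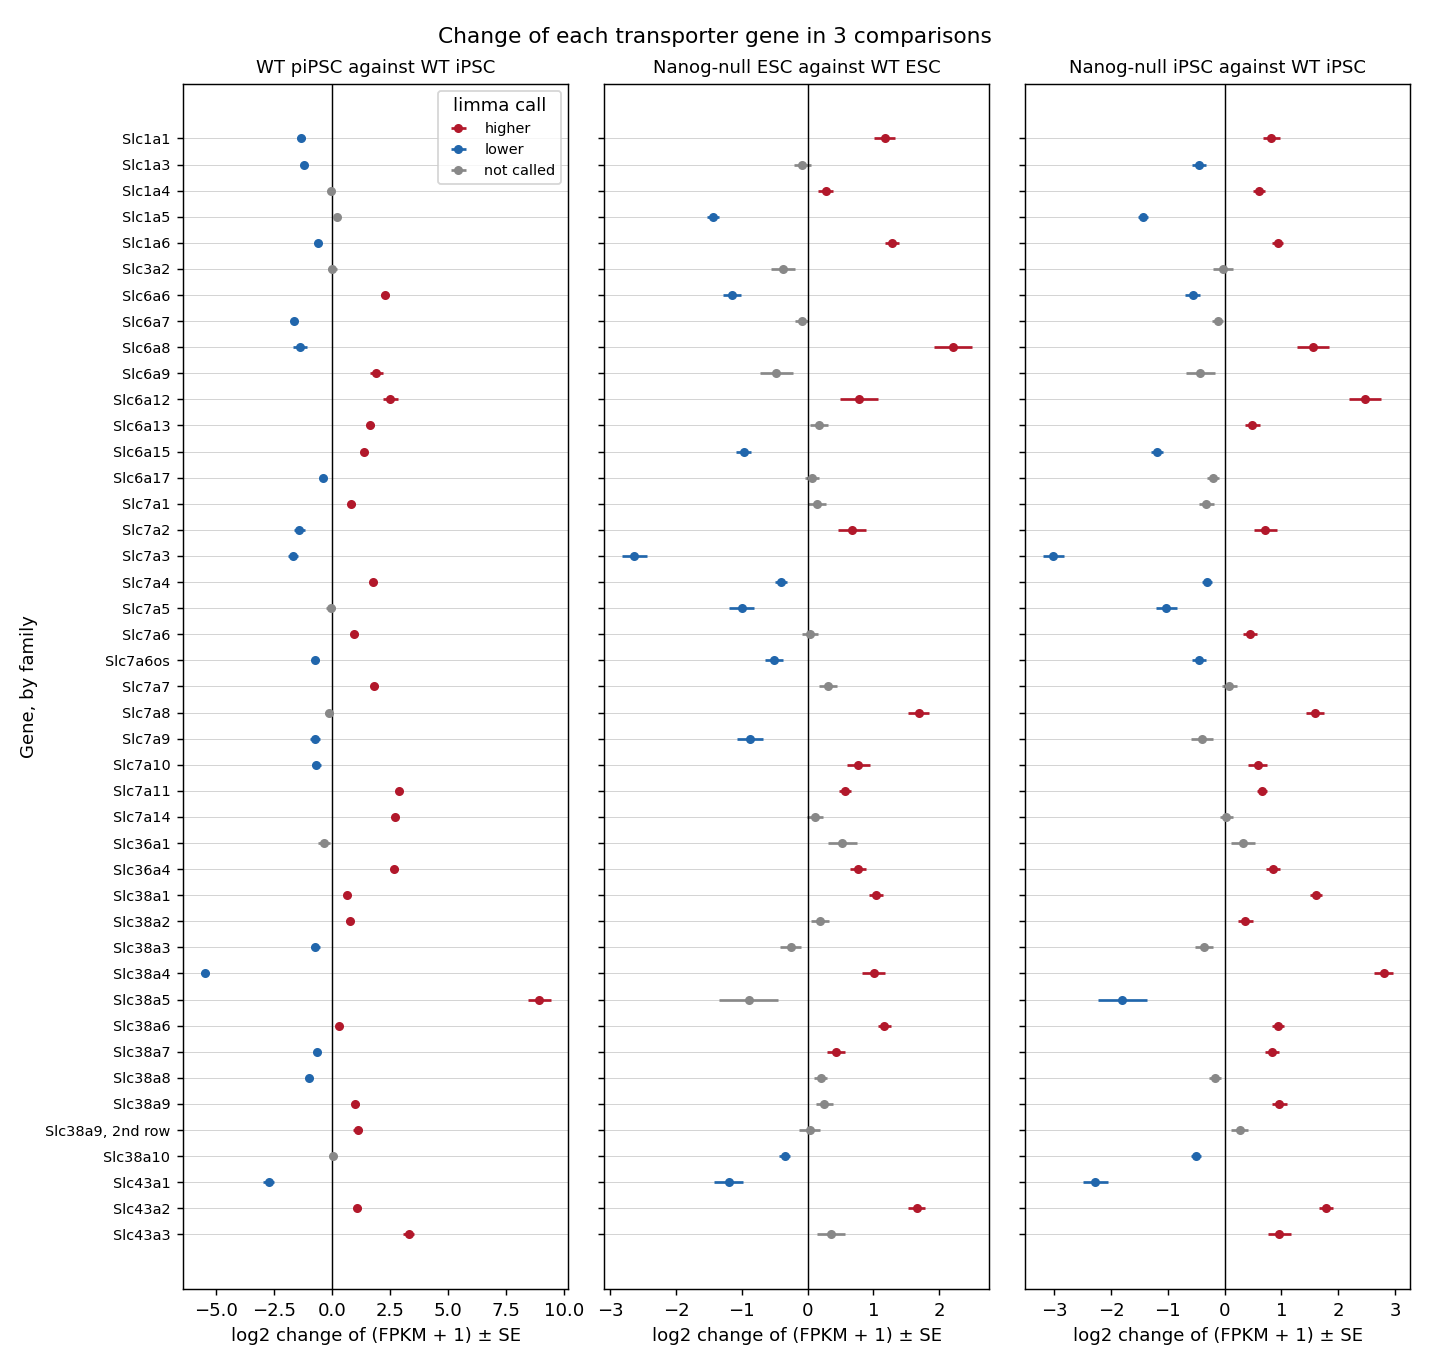
Log2 change of (FPKM + 1) of 43 of the 44 genes, each with its SE, in piPSC against WT iPSC and in Nanog null ESC and iPSC against their WT counterparts; red is called higher, blue called lower and grey not called by limma. Slc38a5 (8.93) and Slc38a4 (-5.46) are the extremes in piPSC, and Slc7a3 is the lowest in both Nanog null panels.

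All 15 members called higher in Nanog null ESC were called higher in Nanog null iPSC, where they were 75.0% of the calls, and 10 of the 11 called lower in ESC were called lower in iPSC. Over all genes tested, 79.8% of the higher and 78.3% of the lower calls in ESC were called the same way in iPSC. The estimates share one batch term, and no overlap test was made. With these calls, other cell types' markers also differed. Summed over the list, primitive endoderm markers were 6.11 to 20.0 FPKM in WT ESC and WT iPSC and 101 to 181 in the Nanog null libraries, where 7 of the 9 rows reached 1 FPKM and 1 of the 2 rows of Dab2 was at 0. Epithelial markers, all 5 above 1 FPKM, summed to 108 to 983 in WT ESC and WT iPSC. In the Nanog null libraries they summed to 624.5 to 2006. There Krt8 and Cldn4 were above every WT ESC and WT iPSC library, while Krt18, Cdh1 and Epcam overlapped them. Cdh1 was 67.7 to 86.3 against 28.6 to 163. Trophoblast markers summed to 19.8 to 36.5 and 35.0 to 77.6. Of these, Cdx2, Ascl2 and Gata3 were above every WT ESC and WT iPSC library. Tfap2c, Eomes, Elf5 and Hand1 overlapped them, with Eomes at 1.26 to 1.94 against 1.85 to 3.74. The part of all these markers, and of the pluripotency and fibroblast markers given above, in the transporter differences was not tested. In these bulk samples, fewer cells of a type and less RNA per cell cannot be told apart. The step from ESC to iPSC differed between Nanog null and WT cells for 5 genes with a higher value (Slc38a4, Slc38a1, Slc6a6, Slc6a12 and Slc38a9) and 1 with a lower (Slc43a1), 13.6% of the 44 beside 11% of all genes (5.79% higher and 5.24% lower).

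Batch AC and batch JI also differed. Between AC and JI libraries of WT ESC and WT iPSC, a comparison added after the data were seen, 20 of the 44 genes were higher in AC and 7 lower (61.4%), beside 72.4% of all genes (34.4% and 38%). The highest were Slc7a1 (3.02 ± 0.11), Slc7a5 (2.65 ± 0.16), Slc38a5 (1.80 ± 0.36), Slc1a4 (1.70 ± 0.09) and Slc43a3 (1.69 ± 0.17), and the lowest were Slc38a3 (-1.56 ± 0.13) and Slc1a3 (-1.13 ± 0.10). Slc7a3, Slc38a1, Slc38a2, Slc38a4 and Slc3a2 were not called. Because piPSC and all Nanog null cells were AC only and MEF JI only, each of their changes rests on this batch estimate or on the AC or JI libraries of the WT cells alone, of which WT iPSC has 1 in AC.

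**Figure D5:**
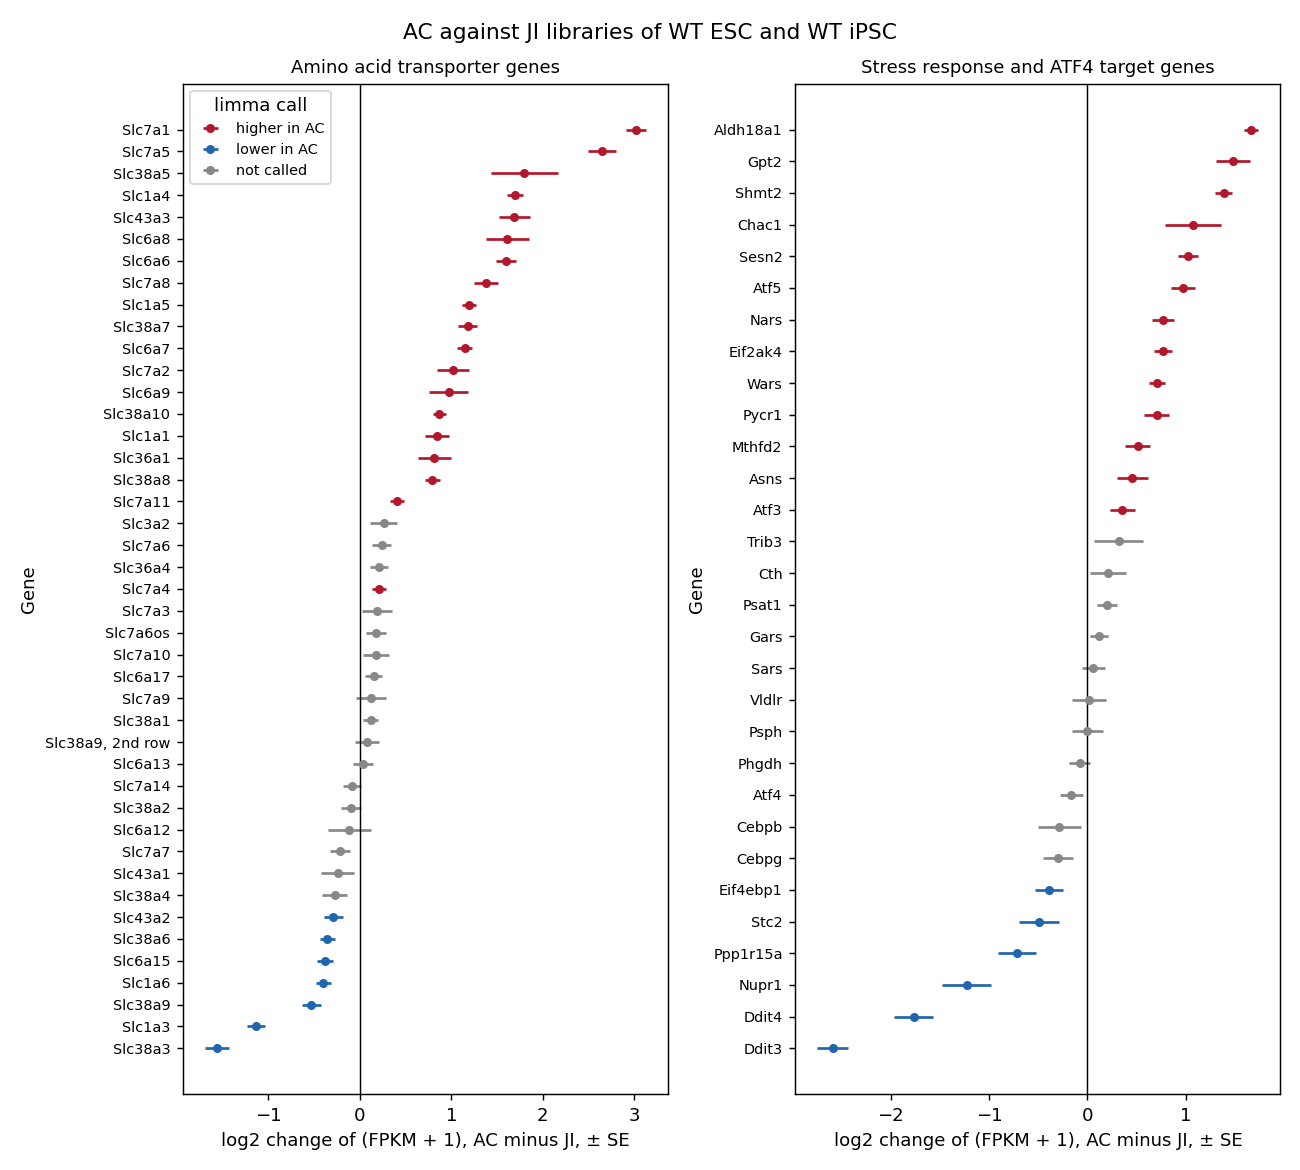
Log2 change of (FPKM + 1), AC minus JI, with its SE, in WT ESC and WT iPSC for 43 of the 44 transporter genes (left) and the 30 stress response and ATF4 target genes (right), sorted by size and coloured by limma call. Slc7a1 (3.02) and Slc7a5 (2.65) are highest on the left, and Ddit3 (-2.59) is lowest on the right.

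In the integrated stress response the factor ATF4 is known to switch on amino acid synthesis, transport and tRNA charging genes. Of 30 genes of this response, 19 were lower and 7 higher in Nanog null ESC (median -0.65, against -0.01 over all genes), beside 53.8% of all genes called. In Nanog null iPSC 15 were lower and 5 higher (median -0.35, against -0.02 over all genes), beside 57.4% of all genes called. The largest changes were Gpt2 (alanine synthesis, -2.27), Phgdh (serine synthesis, -1.97) and Cebpb (1.96) in ESC, and Phgdh (-2.24), Pycr1 (proline synthesis, -2.22) and Gpt2 (-2.03) in iPSC. In piPSC 14 were lower and 6 higher (median -0.20, against -0.06 over all genes), a share of calls near the 64.7% of all genes. The largest changes there were in Vldlr (-1.89), Asns (asparagine synthesis, -1.75) and Atf3 (-1.67). In MEF 13 were lower and 11 higher (median -0.19), a share of calls near the 80.1% of all genes, with the largest changes in Ddit4 (-4.05), Nupr1 (-3.10) and Cth (-2.89). In AC against JI libraries 13 were higher and 6 lower (median 0.20), a share of calls below the 72.4% of all genes, with Ddit3 at -2.59, Ddit4 at -1.77 and Aldh18a1 at 1.66.

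The counts of the lists that follow stand beside 80.1% of all genes called in MEF, 64.7% in piPSC, 53.8% in Nanog null ESC and 57.4% in Nanog null iPSC. The genes of glutamine, glutamate, proline and aspartate metabolism, 4 of which are also in the stress response list, gave 10 lower and 7 higher of 20 in Nanog null ESC (median -0.41) and 11 lower and 7 higher in Nanog null iPSC (median -0.41). Aldh18a1, the first step of proline synthesis, was at -1.93 and -1.72 there, and Pycr1, the last, at -1.92 and -2.22. In piPSC 7 were higher and 7 lower, with glutaminase Gls2 at -1.98, Asns at -1.75 and glutamine synthetase Glul at 1.497. In MEF 12 were lower and 4 higher, led by Gls2 (-3.11), Ggt1 (-2.13) and Asns (-2.07).

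Of 31 genes of mTORC1 amino acid sensing, 15 were higher and 5 lower in Nanog null ESC (median 0.25) and 12 higher and 6 lower in Nanog null iPSC (median -0.06). The largest changes were Rragc (1.63), Rragd (1.40) and Fnip2 (1.16) in ESC, and Rragc (1.57), Rragd (1.56) and Rragb (-1.54) in iPSC. In piPSC 6 were higher and 9 lower, with Gatsl2 at 2.64, Rragd at -2.08 and Sesn2 at -1.65. In MEF 8 were higher and 15 lower, with Lamtor2 at -3.27, Rragb at -2.40 and Gatsl3 at -2.33. Of 10 tested amino acid carriers of other families, 4 were higher and 1 lower in Nanog null ESC and 6 higher and 1 lower in Nanog null iPSC, beside 53.8% and 57.4% of all genes called in those comparisons. The lysosomal exporters Ctns (cystine; 1.51 and 1.66), Pqlc2 (cationic amino acids; 1.38 and 1.34) and Slc17a5 (sialic acid; 0.79 and 1.45) led both. In piPSC 4 were higher and 3 lower, led by Slc17a5 (1.48), and in MEF 5 were higher and 4 lower, led by the mitochondrial carriers Slc25a13 (-2.73) and Slc25a22 (2.72).

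Some members are neighbours on the chromosome, which the choice by name did not use. Positions are from GENCODE vM21 on build GRCm38, where 62 of the 63 IDs matched. Slc38a1 (chr15:96571418-96642913), Slc38a2 (chr15:96687392-96699730) and Slc38a4 (chr15:96994820-97055956) lie in a row on the minus strand with no other protein-coding gene between them. As given above, the outer pair had its highest levels in clone G5, while Slc38a2 did not. Slc43a1 and Slc43a3, 72984 bases apart on chromosome 2, moved in opposite directions in piPSC and Nanog null iPSC. Slc6a13 and Slc6a12, 5342 bases apart on chromosome 6, were both higher in piPSC (1.65 ± 0.15 and 2.50 ± 0.32). Both were also higher in Nanog null iPSC (0.49 ± 0.13 and 2.47 ± 0.28). There Slc6a13 stayed below 1 FPKM, at 0.49 to 0.87 on 31 to 60 fragments. WT iPSC had 0.14 to 0.34 on 3 to 15 fragments. Slc7a6 and Slc7a6os, on opposite strands of chromosome 8 and 2010 bases apart, differed in piPSC, with Slc7a6 at 0.97 ± 0.14 and Slc7a6os at -0.71 ± 0.15. Among the members, Slc38a5, Slc6a8, Slc7a3 and Slc6a14, lie on the X chromosome.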

How the data were processed

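Each of the 17 libraries had 1 deposited table of 28670 genes. The protocols in the labels describe polyadenylated RNA libraries that do not mark strand, sequenced at 2 sites. Per the file headers, the tables hold FPKM values and estimated counts (raw fragments), both made by the authors. Tools listed in the submitters' processing notes are Cuffdiff 2.1.1, Bowtie2 2.0.5, TopHat2 2.0.7 and CASAVA, beside 2 genome builds, and the role of each build is not given in the sources used here.

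Groups came from the sample labels. The main test was limma 3.58.1 (R 4.3.3) on log2(FPKM + 1) over all 17 libraries, modelling group and batch. Genes needed at least 1 FPKM in at least 2 libraries, and 19 genes with a failed or overloaded estimate were left out, leaving 15298. P-values were Benjamini-Hochberg adjusted over these, with a threshold of 0.05. Clones G2 and G5 were averaged, so their p-values leave out the spread between clones. The main alternative was edgeR 4.0.16's quasi-likelihood test on the estimated counts, rounded to whole numbers. Others were RLE size factors, a pseudocount of 0.1, no filter, a mean of at least 5 FPKM, quantile normalization, no batch term, a replicate block, only the groups compared, each batch alone and each library left out. The tests were checked on simulated counts with known changes in Nanog null ESC only and no difference between batches. Such data cannot show how well the batch term handles a real batch difference. Depth was 7.80 to 43.5 M fragments, which limits the precision of genes below 1 FPKM.

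The rule for named genes took Slc38a5, Slc38a4, the 10 members with the highest group mean, both heavy chains and their light chains, and per comparison up to 8 called members in each direction with the largest change among those with a group mean of at least 5 FPKM and no overlap within shared batches. It also took the 3 largest called changes of each pathway list. Members outside it were named with their values known. The members, gene lists and marker lists were chosen with earlier results of these data known. The neural marker list, of which 3 of 5 genes matched, was 7.31 to 45.6 FPKM in the stem cell groups and 95.6 and 98.9 in MEF, and the endothelial list 1.33 to 33.0 and 7.23 and 7.47. The values of 1 tested member are not reported here, and the counts include it.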

Additional observations from a re-analysis of the deposited data

Results flagged for a closer look

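Among the 33 members tested for a library far from the other 3 of WT ESC, 1 stood out: Slc38a1 was at 15.08 FPKM in WT ESC 4, above the 13.6 to 13.8 of the others, and chance flags about 1 in 20 groups. For 6 members the step from ESC to iPSC differed between Nanog null and WT cells by a limma interaction test. On the log2 scale the difference was 1.795 for Slc38a4, 1.686 for Slc6a12, 0.7128 for Slc38a9, 0.5983 for Slc6a6, 0.5716 for Slc38a1 and -1.08 for Slc43a1.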

How the results depend on the processing

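Over 4529 recomputed changes of single members, 4226 kept their direction and side of the threshold, 146 gained a call, 142 lost one and 15 reversed. WT iPSC against WT ESC went from 0 calls to 2 with edgeR (TMM or RLE), 1 with the replicate block and 21 within AC alone, where WT iPSC is 1 library and its spread is taken from the remaining groups, and ranged from 0 to 7 with 1 library left out (leaving out WT ESC 3 gave 7, WT ESC 4 gave 4 and WT iPSC 3 gave 1). G2 against G5 went from 3 to 6 with edgeR (TMM or RLE), 1 without a batch term and 10 with only those groups or AC alone, and was 1 without any 1 of their libraries. Nanog null iPSC against Nanog null ESC went from 9 to 4 with the pseudocount of 0.1, 4 at a mean of at least 5 FPKM, 3 without a batch term, 17 with only those groups and 14 within AC alone, and ranged from 3 to 5 with 1 library left out. The difference in the ESC to iPSC step went from 6 to 3 at a mean of at least 5 FPKM, 1 without a batch term and 22 within AC alone, and ranged from 1 (without Nanog null ESC 1) to 10 (without WT ESC 4). At that mean, which tests fewer genes, calls were 19 in MEF, 16 in piPSC, 14 in Nanog null ESC, 19 in Nanog null iPSC and 15 between batches. Nanog null ESC had 17 without a batch term.

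Reversals without a batch term were Slc1a5 (-0.20) and Slc38a7 (-0.21) in MEF, Slc38a7 in piPSC (0.15), Slc7a5 (0.33) and Slc38a10 (0.08457) in Nanog null ESC, and Slc6a6 (0.51), Slc7a5 (0.74) and Slc38a10 (0.07723) in Nanog null iPSC. Slc38a6 between batches turned to 0.30 and 0.27 with edgeR (TMM and RLE), and Slc7a2 in the ESC to iPSC step to -0.54 within AC alone. Slc3a2 turned to 0.36 in MEF with quantile normalization, to 0.29 in Nanog null iPSC with only those groups or AC alone, and in piPSC ranged from -0.47 (without WT iPSC 1) to 0.15. The causes were not tested. Same-numbered libraries did not deviate together (correlations -0.0556 to 0.114), so the block pairs numbers only. The median of all genes in piPSC moved from -0.06 to -0.17 with edgeR, over 0.1. Over 6972 genes of higher mean FPKM the median shift was -0.08. Single members moved by other amounts, such as Slc38a5 from 8.93 to 9.39 and Slc38a4 from -5.46 to -7.20. Genes below 1 FPKM are limited by depth.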
